A study of Homo sapiens with 6 samples.

Results

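The genes described here encode the protein-folding and quality-control machinery of the endoplasmic reticulum (ER), together with the factors that regulate it. A list of 40 genes was taken by symbol from a table of 23354 genes, and all 40 were found. They were grouped by role into 7 sensors and transcription factors, 15 chaperones, co-chaperones and folding factors, 8 disulfide isomerases and thioredoxin-domain proteins, and 10 genes of ER-associated degradation (ERAD). RNA was sequenced from LNCaP cells, a human prostate cancer line, in 2 groups of 3 libraries. The cells of both groups received dihydrotestosterone (DHT), an androgen, at 1 nM, and those of one group also received white button mushroom (WBM) extract at 3 µL/mL, both for 48 h. Every library therefore carries androgen, and a vehicle control for the extract is not named in the labels. Nothing states that the replicates were separate cultures. The p-values therefore reflect library-to-library spread alone, and that spread may be technical.

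Secreted and membrane proteins fold in the ER, where HSPA5 (BiP) and other chaperones bind them and isomerases form their disulfide bonds. Proteins that fail to fold are sent back to the cytosol and destroyed, which is ERAD. When unfolded protein accumulates, the membrane sensors IRE1 (encoded by ERN1), PERK (EIF2AK3) and ATF6 start the unfolded protein response, in which the factors XBP1 and ATF6 induce chaperone and ERAD genes. Prostate epithelium is a secretory tissue, and XBP1 and this machinery are known there as part of its secretory function.

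Library totals ran from 19127357 to 21490953 counts. Of the luminal markers, KLK3, KLK2, TMPRSS2, HOXB13, FOLH1, KRT8, KRT18 and EPCAM were all measured, at a summed 3913 ± 121 CPM in DHT and 2506 ± 33.0 CPM in DHT+WBM (SD, n = 3). CPM here are counts scaled by each library's total and its TMM factor. Of 8 markers of other cells, KRT5 and COL1A2 had no count, and CAV1, DCN, PTPRC and PECAM1 did not pass the low-count filter. VIM and COL1A1 passed that filter, and neither passed the test between the groups described below. VIM was at 236 ± 0.16 CPM in DHT, near KRT8 at 261 ± 20.7 CPM and KRT18 at 244 ± 11.7 CPM. COL1A1 was at 10.5 ± 0.81 CPM in DHT.

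Most of the ER genes were lower with the extract. The filter on low counts kept 39 members. Of these, 31 were called lower, 2 were called higher and 6 were not called by the test, which was edgeR's quasi-likelihood test at an adjusted p under 0.05. Among all 13466 tested genes, 29% were lower and 29.2% were higher by the same rule, so 79.5% of the tested members were lower against 29% of all genes. The median log2 fold change over the tested members was -0.36, against 0.0029 over all tested genes, and the median member stood at percentile 13.5 of all fold changes ordered from lowest to highest. In 31 members all 3 DHT+WBM libraries lay below all 3 DHT libraries, a pattern seen in 31.1% of tested genes, and 30 members had both that pattern and the call. Fold changes are DHT+WBM over DHT. In libraries made from whole cultures, fewer cells of a kind and less RNA per cell cannot be told apart.

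**Figure D1:**
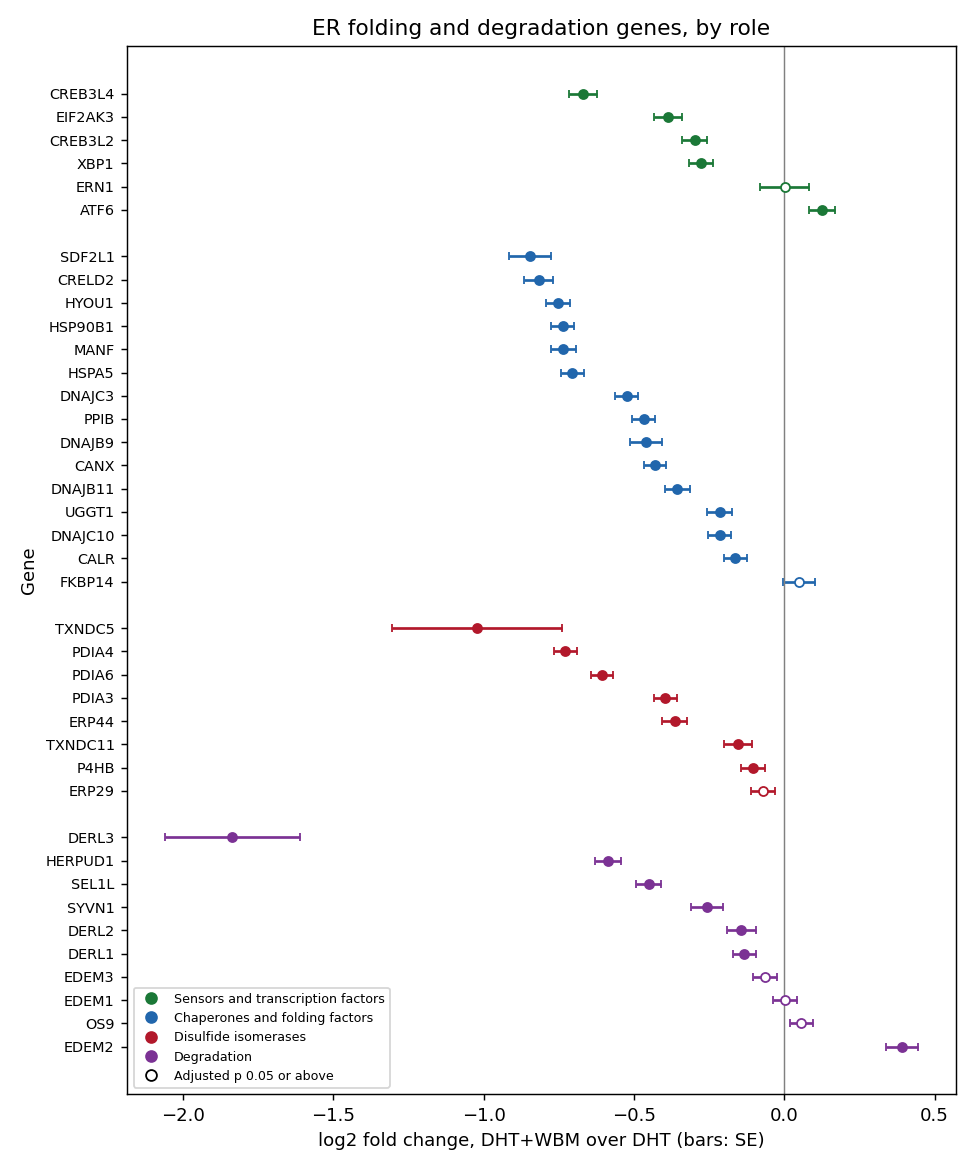
Each point is the log2 fold change of one gene (x axis, DHT+WBM over DHT) with its standard error, grouped by role on the y axis, and open points did not pass the test. The chaperones SDF2L1 (-0.85) to CALR (-0.16) lie left of zero with FKBP14 at 0.05, and EDEM2 at 0.39 lies farthest right.

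The size of the fall was read for each role as a sum over its genes. The summed level of the chaperones in DHT+WBM was 72.9% of that in DHT, the disulfide isomerases 78.1%, the sensors and transcription factors 84.2% and the ERAD genes 89.8%. All 40 genes together made up 17860 ± 308 CPM in DHT and 13515 ± 394 CPM in DHT+WBM (SD, n = 3). Their sum was 18209, 17622 and 17749 CPM in the DHT libraries and 13220, 13363 and 13962 CPM in the DHT+WBM libraries, and the groups did not overlap. Whether one role differed from another was not tested. Of the 8 luminal markers, 4 were lower (50%) and 1 was higher (12.5%), against 29% and 29.2% of all tested genes. KLK3, a secreted protease, stood at -1.45 on the log2 scale, from 1682 to 616 CPM. KRT8 rose with 0.20, and FOLH1, KRT18 and EPCAM did not pass the test. The part of these markers in the fall of the ER genes was not tested.

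**Figure D2:**
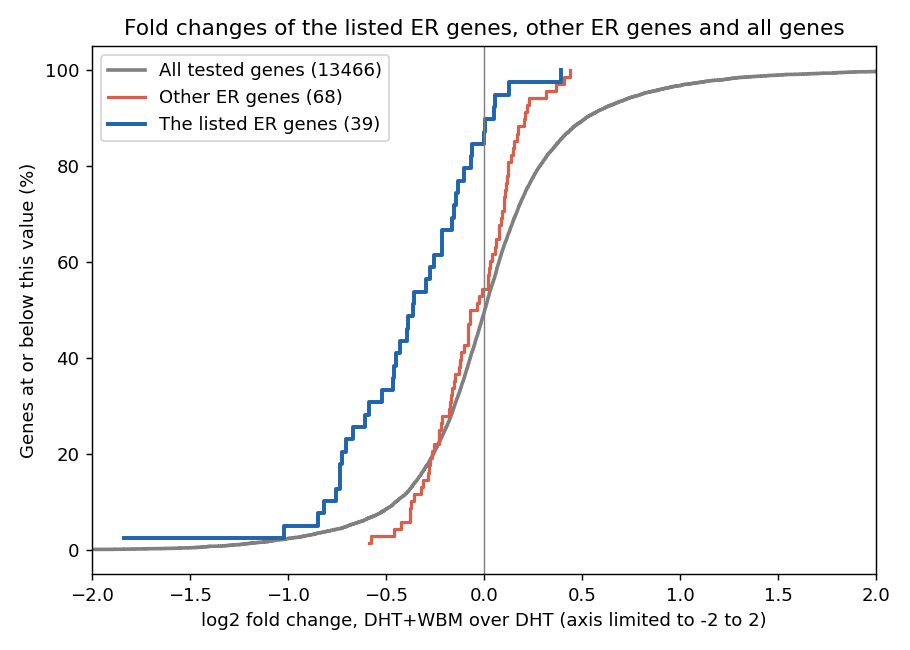
The curves give the percentage of genes (y axis) with a log2 fold change at or below the value on the x axis, for the 39 tested ER genes, 68 other tested ER genes and all 13466 tested genes. The curve of the 39 lies to the left of both others, with its median at -0.36, and that of the other ER genes crosses its middle at -0.05.

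Among the sensors and transcription factors, 4 of 6 tested genes fell (66.7%) and 1 rose (16.7%), against 29% and 29.2% of all tested genes. CREB3L4, an ER-bound transcription factor that is abundant in prostate (chromosome 1, 153940315 to 153946840, hg19), was at 77.8, 74.7 and 72.9 CPM in DHT and 46.3, 47.9 and 47.5 CPM in DHT+WBM. Every DHT+WBM library lay well under every DHT library, a log2 fold change of -0.67 ± 0.05 (SE, adjusted p = 5.33e-15). Its ends overlap those of JTB and SLC39A1 on the opposite strand by 96 and 346 bases, and the strand setting of the counting is not given in the sources used here.

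EIF2AK3, the PERK kinase that slows translation by phosphorylating an initiation factor, was at 82.4, 86.0 and 81.7 CPM in DHT and 59.6, 66.8 and 64.9 CPM in DHT+WBM. It fell, at a log2 fold change of -0.39 ± 0.05 (adjusted p = 7.19e-09) and no overlap between groups. XBP1, the factor whose messenger RNA is spliced by IRE1 (chromosome 22, 29190548 to 29196560), was at 326, 319 and 321 CPM in DHT and 260, 258 and 280 CPM in DHT+WBM. The log2 fold change was -0.28 ± 0.04 (adjusted p = 1.25e-07), again with the groups apart. Counts per gene do not separate the spliced from the unspliced XBP1 transcript, and they carry nothing on the phosphorylation of PERK or the cleavage of ATF6. CREB3L2, a relative of CREB3L4, fell too, at -0.30 ± 0.04 on the log2 scale.

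The remaining sensor genes were not lower. ATF6, which moves to the Golgi and is cut there into a transcription factor, was at 120, 118 and 110 CPM in DHT and 120, 129 and 131 CPM in DHT+WBM. The groups overlapped, and the log2 fold change of 0.13 ± 0.04 passed the test at an adjusted p of 0.0141. That call rested on single libraries. The adjusted p was 0.103 when DHT replicate 3 was left out, and 0.0698 and 0.130 when DHT+WBM replicates 2 and 3 were. ERN1, the gene of IRE1, did not pass the test, at 13.6 to 16.7 CPM in DHT and 14.2 to 15.8 CPM in DHT+WBM (log2 fold change 0.0011, adjusted p = 0.992). CREB3L1 had 4, 2 and 4 counts in DHT and 9, 5 and 7 counts in DHT+WBM and did not pass the filter on low counts.

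Of the 15 chaperones, co-chaperones and folding factors, 14 fell (93.3%), against 29% of all tested genes. The median change of this role was -0.47 on the log2 scale. HSPA5, the ER member of the HSP70 family and the partner that holds the 3 sensors inactive (chromosome 9, 127997127 to 128003666), was at 1840, 1781 and 1782 CPM in DHT. In DHT+WBM it was at 1066.5, 1093.5 and 1152.7 CPM, and every one of these libraries lay far under the DHT libraries. The fall was 1.63-fold, a log2 fold change of -0.71 ± 0.04 (adjusted p = 1.38e-18). HSP90B1 (GRP94), the ER member of the HSP90 family (chromosome 12, 104324112 to 104341708), was at 2397, 2428 and 2252 CPM in DHT and 1369, 1403 and 1474.5 CPM in DHT+WBM.

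The helpers of HSPA5 fell as well. SDF2L1, which binds BiP together with J-domain proteins (chromosome 22, 21996542 to 21998588), was at 27.02, 25.01 and 26.37 CPM in DHT and 14.03, 14.27 and 15.28 CPM in DHT+WBM. Its log2 fold change of -0.85 ± 0.07 was the lowest of this role (adjusted p = 2.97e-13). HYOU1, a large HSP70 relative that exchanges nucleotide on BiP, was at 709, 638 and 671 CPM in DHT and 392, 395 and 410 CPM in DHT+WBM, with no overlap. The J-domain co-chaperones DNAJC3, DNAJB9 and DNAJB11, which stimulate BiP, fell with log2 fold changes of -0.52, -0.46 and -0.36. DNAJC10, a J-domain protein that reduces disulfides ahead of degradation, fell with -0.21.

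CRELD2 and MANF encode secreted or ER-retained proteins that ER stress induces. CRELD2 was at 83.2, 80.0 and 83.3 CPM in DHT and 49.8, 43.8 and 46.3 CPM in DHT+WBM, a log2 fold change of -0.82 ± 0.05 (adjusted p = 3.97e-17). MANF was at 228, 217 and 231 CPM in DHT and 137, 130 and 139 CPM in DHT+WBM, a log2 fold change of -0.73 ± 0.04. In both, all DHT+WBM libraries lay below all DHT libraries.

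The lectin chaperones, which hold glycoproteins during folding, all fell. They are CANX and CALR. CANX, the membrane-bound calnexin, was at 1690, 1676 and 1628 CPM in DHT and 1191, 1238 and 1277 CPM in DHT+WBM, a log2 fold change of -0.43 ± 0.04. CALR, the soluble calreticulin (chromosome 19, 13049414 to 13055304), was at 3329, 3146 and 3297 CPM in DHT and 2861, 2839 and 3030 CPM in DHT+WBM. It fell 1.12-fold, with a log2 fold change of -0.16 ± 0.04 (adjusted p = 0.000396) and the groups just apart. UGGT1, which reglucosylates misfolded glycoproteins so that these lectins bind them again, fell with -0.21.

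The list holds 2 prolyl isomerases, which turn proline bonds during folding. PPIB (cyclophilin B) was at 732, 718 and 754 CPM in DHT and 530, 515 and 549 CPM in DHT+WBM, a log2 fold change of -0.47 ± 0.04. FKBP14 was the member of this role that did not pass the test, at 46.4 ± 2.40 CPM in DHT and 47.9 ± 1.76 CPM in DHT+WBM (log2 fold change 0.05, adjusted p = 0.445).

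**Figure D3:**
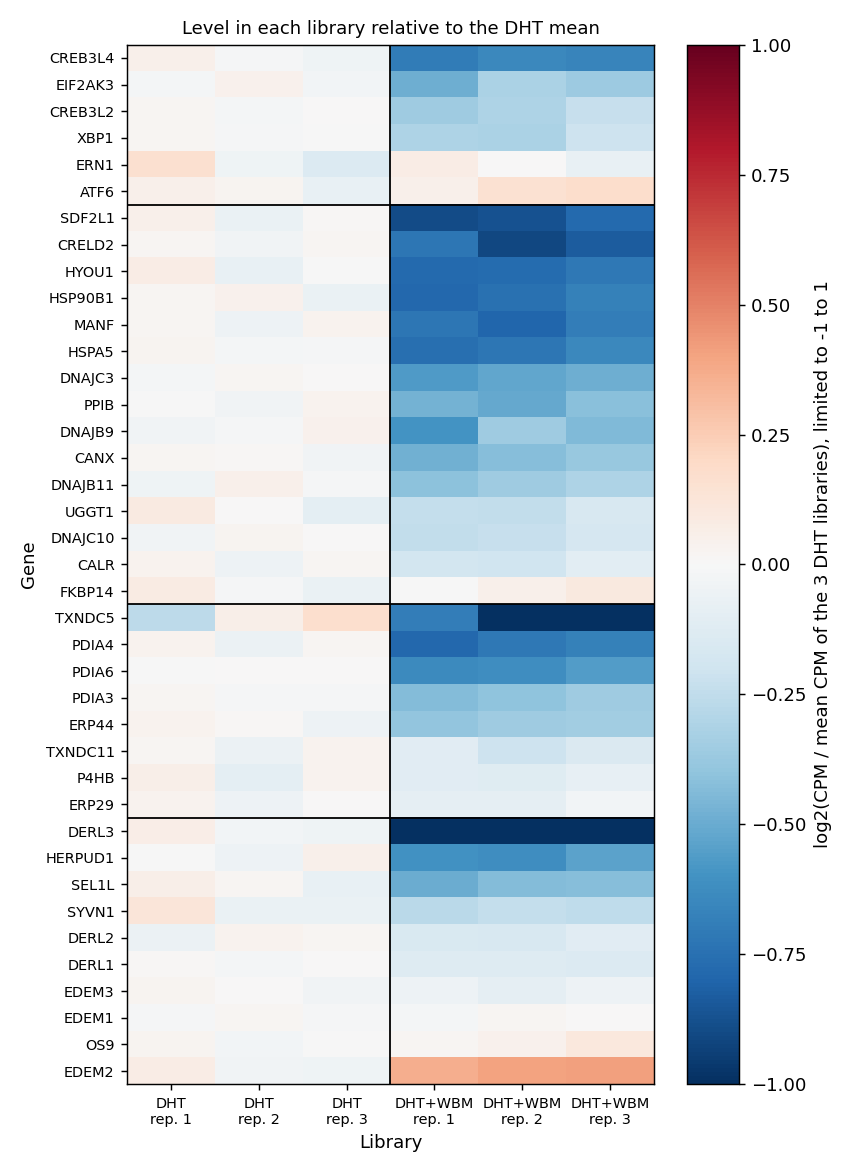
Colours give log2 of the level in each library (x axis) over the mean of the 3 DHT libraries for each tested gene (y axis), with lines between the roles and colours limited to -1 to 1. Most genes are blue in all 3 DHT+WBM libraries, as in HSPA5 (1066.5 to 1152.7 CPM), and EDEM2 is red in all 3 (46.0 to 47.4 CPM).

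Ratios of counts within one library do not depend on how libraries were scaled, so they were taken for 4 pairs. The pairs were chosen after the fold changes were seen, so the ratios describe those differences again on another scale and are no further evidence of them. HSPA5 over CALR was 0.553, 0.566 and 0.540 in DHT and 0.373, 0.385 and 0.380 in DHT+WBM. CANX over CALR was 0.508, 0.533 and 0.494 in DHT and 0.416, 0.436 and 0.421 in DHT+WBM. Both ratios were lower in every DHT+WBM library.

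Promoters were examined because many of these genes fell together and because ATF6 and XBP1 are known to bind the ER stress element (ERSE). RefSeq windows on GRCh38.p14, from 250 bases before to 50 after the start, matched 36 members with 44 windows. The ERSE was searched as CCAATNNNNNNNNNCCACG on both strands, with no mismatch. It was present for HSP90B1, HSPA5, CRELD2, PDIA6, CANX, XBP1 and CALR, which is 7 of 36 members. Of all 27305 genes with a window, 25 (0.0916%) held it, and of the 10304 tested genes with a window, 16 (0.155%). The last 200 bases before the start are shown for the first 4 of these members in order of adjusted p, to let the element be seen in its place. They are printed 5′ to 3′ on the gene's strand, with the ERSE in capitals.
HSP90B1: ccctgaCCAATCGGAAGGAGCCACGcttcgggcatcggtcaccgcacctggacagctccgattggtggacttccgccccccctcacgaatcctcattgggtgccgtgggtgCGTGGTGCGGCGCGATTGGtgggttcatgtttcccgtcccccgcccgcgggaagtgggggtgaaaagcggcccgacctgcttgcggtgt
HSPA5: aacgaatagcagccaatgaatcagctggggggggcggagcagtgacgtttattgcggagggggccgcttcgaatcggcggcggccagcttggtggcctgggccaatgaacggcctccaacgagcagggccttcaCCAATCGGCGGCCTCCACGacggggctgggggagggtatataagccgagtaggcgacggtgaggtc
CRELD2: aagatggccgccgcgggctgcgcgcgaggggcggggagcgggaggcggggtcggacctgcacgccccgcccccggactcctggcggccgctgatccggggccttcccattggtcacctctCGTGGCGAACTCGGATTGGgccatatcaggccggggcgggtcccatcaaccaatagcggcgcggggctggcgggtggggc
PDIA6: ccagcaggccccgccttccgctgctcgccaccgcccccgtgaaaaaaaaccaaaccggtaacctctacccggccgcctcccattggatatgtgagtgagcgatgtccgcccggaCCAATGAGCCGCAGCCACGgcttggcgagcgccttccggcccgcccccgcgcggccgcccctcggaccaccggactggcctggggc

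These stretches are chr12:103930210-103930409 (plus strand) for HSP90B1, chr9:125241344-125241543 (minus) for HSPA5, chr22:49918434-49918633 (plus) for CRELD2 and chr2:10812786-10812985 (minus) for PDIA6, which has another window without the element. HSP90B1 holds the ERSE once on each strand, at bases -194 to -176 and -89 to -71, and CRELD2 holds it on the reverse strand at -80 to -62. In HSPA5 it stands at -66 to -48, and in PDIA6 at -86 to -68. The related element ERSE-II, searched as ATTGGNCCACG on both strands, was present in HYOU1, HERPUD1 and SDF2L1, 3 of 36 members, against 0.0696% of all genes and 0.136% of tested genes. The core of the XBP1 element, TGACGTG on both strands, was present in DNAJC10, TXNDC5, HYOU1 and TXNDC11, 4 of 36 members (11.1%). It was held by 2.4% of all genes and 3.39% of tested genes. In HYOU1 it overlaps an ERSE-II. Of 59 other ER genes with a window, from the further lists described below, 5 (8.47%) held the core, near the share of the members. The ERSE was held by 2 of these 59 genes (3.39%) and ERSE-II by 0. Like PDIA6, XBP1 and CANX also have a window without the ERSE, and TXNDC5 has a window without the TGACGTG core. A gene was counted as holding a motif if any of its windows did.

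Members with at least one of these motifs numbered 13, and all 13 fell. Their median change was -0.61 on the log2 scale. The 22 tested members with a window and no motif had 15 lower and 2 higher, with a median of -0.28. MANF and PDIA4 were among those with no motif and fell with log2 fold changes of -0.73 each. The 7 members that hold the ERSE ranged from -0.82 for CRELD2 to -0.16 for CALR. Outside the list, 9 tested genes held the ERSE, of which 2 were lower (22.2%) and 3 higher. Any of the motifs was held by 365 tested genes outside the list. Of these 365 genes, 31.8% were lower, against 29.6% of those with a window and no motif. Many listed genes are textbook targets of these elements, and the difference between members with and without a motif was not tested.

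The disulfide isomerases and thioredoxin-domain proteins fell in 7 of 8 cases (87.5%), against 29% of all tested genes. The median change of this role was -0.38 on the log2 scale. PDIA4, an isomerase with extra thioredoxin domains (chromosome 7, 148700154 to 148725782), was at 786, 740 and 780 CPM in DHT and 445, 467 and 480 CPM in DHT+WBM. All DHT+WBM libraries lay far below, with an adjusted p of 1.06e-18. PDIA6, which also attenuates IRE1, was at 674, 675 and 675 CPM in DHT and 433, 438 and 457 CPM in DHT+WBM, a log2 fold change of -0.61 ± 0.04. PDIA3, which works with the lectin chaperones on glycoproteins, and ERP44, which retains oxidases and unassembled subunits in the early secretory pathway, fell with -0.40 and -0.36.

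P4HB, the founding protein disulfide isomerase and the beta subunit of prolyl 4-hydroxylase (chromosome 17, 79801034 to 79818544), was at 1412, 1266 and 1384 CPM in DHT and 1253, 1247 and 1280 CPM in DHT+WBM. The groups overlapped, and its log2 fold change of -0.10 ± 0.04 (adjusted p = 0.0241) lost its call under upper-quartile factors (adjusted p = 0.125), under library totals alone (adjusted p = 0.207) and with single libraries left out. Leaving out DHT replicates 1 and 3 gave an adjusted p of 0.0944 and 0.0693, and leaving out DHT+WBM replicates 1 and 2 gave 0.0703 and 0.0692. PDIA4 over P4HB was 0.557, 0.585 and 0.564 in DHT and 0.355, 0.375 and 0.375 in DHT+WBM, lower in every DHT+WBM library. ERP29, a chaperone of this fold without the redox site, did not pass the test, at 167 ± 4.98 CPM in DHT and 159 ± 4.32 CPM in DHT+WBM. TXNDC11, a thioredoxin-domain protein of the ER membrane, fell with -0.15 ± 0.05, and its call was lost with library totals alone (adjusted p = 0.0505).

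TXNDC5 was rare, with 22, 26 and 29 counts in DHT and 16, 10 and 12 counts in DHT+WBM, a log2 fold change of -1.02 ± 0.28 (adjusted p = 0.00218). Its whole span lies inside the annotated readthrough gene BLOC1S5-TXNDC5 on the same strand, which is listed at 0 in all libraries. Reads that match both genes can be left out of either during counting, so the level of TXNDC5 is uncertain.

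**Figure D4:**
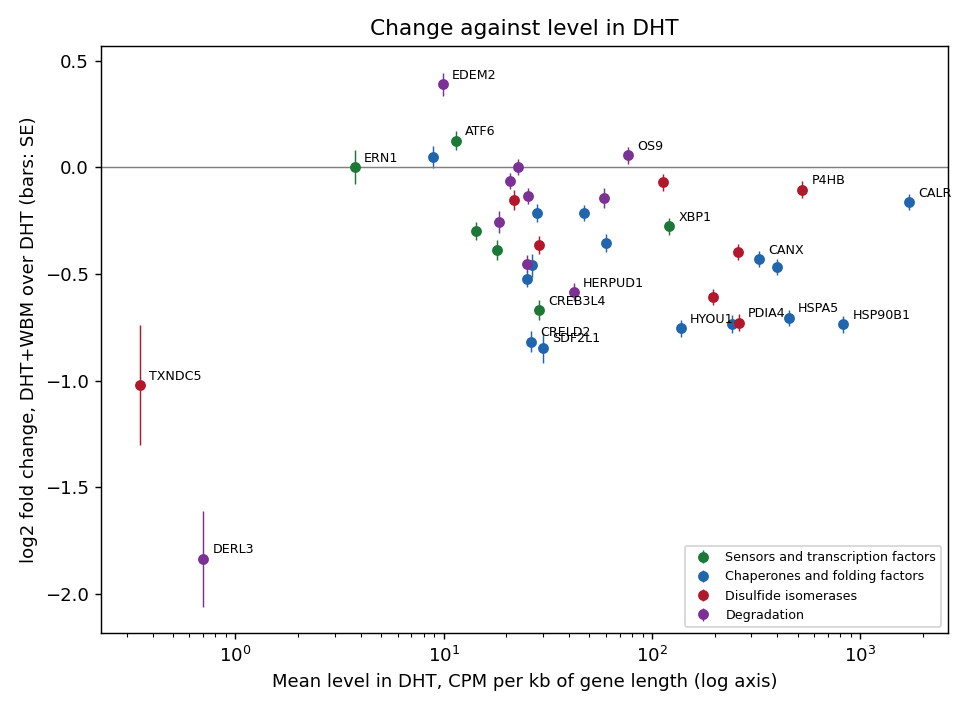
The x axis gives the mean DHT level in CPM per kb of gene length (log axis) and the y axis the log2 fold change with its standard error, one point per gene, coloured by role. CALR, the highest at 1713 CPM per kb, changed by -0.16, HSP90B1 at 829.5 and HSPA5 at 455 CPM per kb by -0.74 and -0.71, and the rare DERL3 and TXNDC5 lie apart at the lower left.

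Per length, the DHT levels ran from CALR at 1713 CPM per kb through HSP90B1 at 829.5, P4HB at 527, HSPA5 at 455, PPIB at 397 and CANX at 326 CPM per kb. In DHT+WBM, CALR stood at 1530, HSP90B1 at 498, P4HB at 491, PPIB at 287, HSPA5 at 279 and CANX at 242 CPM per kb. HSP90B1 was thus close to P4HB in DHT+WBM, with 1 gene falling 1.67-fold and the other 1.07-fold. The sensors were lower in level, with ERN1 at 3.76, ATF6 at 11.4 and EIF2AK3 at 18.0 CPM per kb in DHT.

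Of the 10 ERAD genes, 6 fell (60%), 1 rose (10%) and 3 were not called, against 29% lower and 29.2% higher among all tested genes. The median change of this role was -0.14 on the log2 scale, and its median percentile among all fold changes was 31.7. HERPUD1, a stress-induced scaffold of the degradation complex (chromosome 16, 56966002 to 56977793), was at 137, 132 and 142 CPM in DHT and 90.1, 89.4 and 94.5 CPM in DHT+WBM. The log2 fold change was -0.59 ± 0.04 (adjusted p = 9.11e-15), with the groups far apart. SEL1L, the adaptor of the ubiquitin ligase, was at 223, 218 and 204 CPM in DHT and 153, 159 and 160 CPM in DHT+WBM, a log2 fold change of -0.45 ± 0.04. SYVN1 (HRD1), the ligase itself, fell with -0.26 ± 0.05, from 56.1 ± 4.26 to 47.0 ± 0.53 CPM.

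The Derlins are membrane proteins of the retrotranslocation step. DERL1 and DERL2 fell by little, with log2 fold changes of -0.13 (adjusted p = 0.00330) and -0.14 (adjusted p = 0.00968), and the DERL2 call was lost with library totals alone (adjusted p = 0.0771). DERL3, a Derlin that ER stress induces, was rare, with 56, 50 and 51 counts in DHT and 14, 13 and 17 counts in DHT+WBM. It fell 3.57-fold, with a log2 fold change of -1.84 ± 0.22 (adjusted p = 6.17e-09), the lowest value of the 39.

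The lectins and mannosidase-like proteins that pick glycoproteins for degradation mostly did not pass the test. EDEM1 was at 143, 146 and 143 CPM in DHT and 142, 146 and 144 CPM in DHT+WBM, and the libraries of the groups were interleaved. EDEM3 and OS9 did not pass the test either, with log2 fold changes of -0.06 and 0.06, although OS9 passed as higher under upper-quartile factors (adjusted p = 0.0458) and with library totals alone (adjusted p = 0.0187). SEL1L over OS9, partners in one complex, was 1.01, 1.02 and 0.939 in DHT and 0.692, 0.710 and 0.683 in DHT+WBM, lower in every DHT+WBM library.

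EDEM2, which trims mannose as the first step towards degradation (chromosome 20, 33703160 to 33865960), rose. It was at 37.7, 34.9 and 34.6 CPM in DHT and 46.0, 47.1 and 47.4 CPM in DHT+WBM, with every DHT+WBM library above every DHT library and a log2 fold change of 0.39 ± 0.05 (adjusted p = 8.16e-08). The annotated span of EDEM2 in the deposited table holds 3 other genes that were higher too. MMP24-AS1, on the same strand, rose from 106 ± 3.95 to 158 ± 1.90 CPM (log2 fold change 0.58), and MMP24 and PROCR, on the opposite strand, rose with 0.39 and 0.82. Their part in the rise of EDEM2 was not tested.

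The wider pathway was read from 72 further ER genes, of which 68 passed the low-count filter. Of these, 28 fell, 15 rose and 25 were not called, and the median change was -0.05 on the log2 scale. That is 41.2% lower and 22.1% higher, against 29% and 29.2% of all tested genes. That split depended on scaling, with 24 lower and 22 higher under upper-quartile factors and 22 lower and 24 higher with library totals alone. Other chaperones and folding factors had 10 of 22 lower (45.5%) and 5 higher (22.7%). DNAJC1, a J-domain protein of the ER membrane, and CLGN, a relative of calnexin, fell with log2 fold changes of -0.59 and -0.58, while the prolyl isomerase genes PPIC and FKBP9 rose with 0.44 and 0.37. FKBP9 lies inside the span of AVL9 on the same strand.

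Among other disulfide and redox genes, 8 of 12 fell (66.7%) and 2 rose (16.7%), against the same 29% and 29.2%. The 2 that rose were ERO1A and ERO1B, the oxidases that recharge protein disulfide isomerase. ERO1A was at 106, 111 and 101 CPM in DHT and 124, 142 and 129 CPM in DHT+WBM, a log2 fold change of 0.32 ± 0.05 (adjusted p = 3.04e-07). ERO1B rose with 0.41 ± 0.07, and the groups did not overlap for either. TMX3 and PDIA5, further isomerase relatives, fell with -0.43 and -0.32.

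Other ERAD genes had 9 of 25 lower (36%) and 5 higher (20%), and their median change was 0.03 on the log2 scale. These shares are near those of all tested genes, 29% and 29.2%. UBE2J1, a ubiquitin-conjugating enzyme of the ER membrane, fell by 0.38 on the log2 scale, as did ERLIN1, part of a complex that directs membrane proteins to degradation, by 0.36. NPLOC4, a cofactor of the segregase VCP, and FAM8A1, a partner of SYVN1, rose with 0.22 and 0.17. VCP itself, which pulls proteins out of the membrane, did not pass the test, at 1016 ± 33.1 CPM in DHT and 991 ± 27.8 CPM in DHT+WBM.

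Downstream of the sensors, ATF4, the factor translated when PERK is active, was at 177, 180 and 187 CPM in DHT and 141, 141 and 138 CPM in DHT+WBM. All DHT+WBM libraries lay lower, at -0.37 ± 0.04 on the log2 scale (adjusted p = 2.54e-10). DDIT3 (CHOP), the stress factor of that arm, was at 12.7, 11.1 and 9.80 CPM in DHT and 13.0, 14.1 and 12.5 CPM in DHT+WBM, with overlapping groups and a log2 fold change of 0.23 ± 0.09 (adjusted p = 0.0270). Its end overlaps MARS on the opposite strand by 964 bases. PPP1R15A (GADD34), which reverses PERK signalling, was near 3 CPM and did not pass the test, at 0.12 ± 0.16. MBTPS1 and MBTPS2, the Golgi proteases that cut ATF6, did not pass the test either, with log2 fold changes of -0.01 and 0.10. Of the 9 genes tested in this list, 1 fell (ATF4) and 3 rose (DDIT3, CREB3 and TRIB3). The 33.3% that rose is near the 29.2% of all tested genes, and the 11.1% that fell is under the 29% of all tested genes. The median change of this list was 0.10 on the log2 scale.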

How the data were processed

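The deposited table holds unnormalized whole-number counts for each gene and library, with hg19 positions and lengths. Tools named per the submitters' processing notes were edgeR 3.28.1, HTSeq 0.6.0, STAR 2.6.0 and bcl2fastq 2.18.0.12, with no role or order. The annotation and strand setting of the counting were not given in the sources used here. Columns were matched to libraries by the code in each title.

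For the comparison, edgeR 4.0.16 was run under R 4.3.3 with filterByExpr (minimum count 10, minimum total 15), TMM factors of 0.979 to 1.02, and the two-sided quasi-likelihood F-test of DHT+WBM against DHT, adjusted by Benjamini-Hochberg over all 13466 tested genes. Errors of fold changes are standard errors (SE), taken as the absolute log2 fold change over the square root of the F statistic. They come from the same statistic as the p-values and are no separate measure. The common coefficient of variation between replicates was 3.39%. The fit was tested on simulated data, in which all genes shared a common dispersion and far fewer genes changed than were called here. The members and lists were chosen with earlier results of these data known, so their counts are descriptions. All members could be named, and of each further ER list the 2 largest rises and 2 largest falls with a mean of at least 5 CPM, plus ATF4, DDIT3, PPP1R15A, MBTPS1 and MBTPS2. TRIB3, VCP and the overlapping genes were named after their values were seen. Gene length in the table, not a count, was used for levels per kb. Promoters are RefSeq windows.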

Additional observations from a re-analysis of the deposited data

How the results depend on the processing

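The alternatives were RLE and upper-quartile factors, library totals alone, DESeq2 1.42.0, an adjusted p under 0.01, the replicate number as a block, no filter on low counts, a filter keeping genes with 1 CPM or more in 3 libraries, and each library left out in turn. The count of lower ER members was 31 with RLE factors, DESeq2, either filter or the block, 30 with upper-quartile factors or an adjusted p under 0.01, 28 with library totals alone, and 30 to 32 with a library left out. Higher members numbered 1 at an adjusted p under 0.01 and 1 to 2 with a library left out, with 0 and 0 to 1 among the sensors, where ATF6 lost its call. Higher ERAD genes numbered 2 under upper-quartile factors and under library totals alone, and other ER genes higher numbered 24 with library totals alone. Of 546 refits of single members, 517 kept direction and call, and calls were lost or gained for 6 genes, ATF6, P4HB, ERP29, TXNDC11, OS9 and DERL2. ERN1 and EDEM1, both near zero, changed sign: ERN1 was at -0.00050 with RLE factors, -0.010 with no filter and -0.0022 with the 1 CPM filter, and EDEM1 at -0.0093 with no filter and -0.0010 with the 1 CPM filter. With a library left out, ERN1 ranged from -0.063 to 0.087 and EDEM1 from -0.014 to 0.011. ERP29 passed as lower without DHT replicate 2, at -0.09 (edgeR adjusted p = 0.0476). Whether same-numbered libraries shared a batch was not stated and could not be decided from 3 libraries per group. Deviations of same-numbered libraries correlated at 0.0498, 0.0374 and 0.0192, and not every library correlated best with its own number. The replicate block left 31 members lower and 2 higher, and other ER genes higher went from 15 to 18. Over all genes it raised the lower calls from 3909 to 4030 and the higher calls from 3928 to 4079. The causes of these changes were not tested. Depth limits DERL3, TXNDC5 and CREB3L1, which rest on few counts.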
